A study of Nothobranchius furzeri with 20 samples.

Results

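Of 26739 gene identifiers counted in killifish liver, 56 were chosen as genes with a low level at 5 weeks of age and a higher, level plateau at 7, 10 and 14 weeks. The study measured bulk RNA in 20 liver libraries of male turquoise killifish (Nothobranchius furzeri) of the GRZ strain, with 5 libraries at each of the 4 ages. All groups share strain, sex and tissue, and the labels give no treatment. Library totals ran from 22529235 to 42886761 reads. The titles give each library its own number, but the labels do not state that the libraries of an age came from separate animals. Each library is called a fish here, and p-values measure the spread between libraries, which may be technical.

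The turquoise killifish is an annual fish of seasonal ponds that grows and matures within weeks, and GRZ is a laboratory strain known for its short life. The liver of a fish secretes plasma proteins, bile and lipoproteins, and stores and releases lipid and sugar, so its RNA shifts with feeding, growth and maturation. In bulk tissue, fewer cells of a type and less RNA per cell cannot be told apart. The deposited identifiers are not paired with gene names, and 0 of them were found among 38438 genes of the RefSeq table for the assembly NfurGRZ-RIMD1. The roles of the 56 genes, the tissue's marker genes and the gene sequences are therefore not given here.

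The members were chosen by the counts themselves. Each count was divided by its library total and multiplied by 1000000 to give CPM, the count in every 1000000 counts, and 0.5 was added before taking log2. A gene needed a median of at least 5 CPM in at least 1 age and could not be among the 100 most abundant genes, which left 10284 eligible genes. The medians at 7, 10 and 14 weeks had to lie within less than 0.8 log2 units of each other, which 6117 genes met. The score is the lowest of these later medians minus the 5-week median, and 56 genes reached a score of 1, below the cap of 150. The same rule turned the other way gave 53 genes high only at 5 weeks. Centred on 7 weeks, the rule without its cap of 150 gave 205 low and 536 high genes. Centred on 10 weeks it gave 24 and 21, and on 14 weeks 9 and 17.

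The choice by medians left room for single fish, and 3 of the 15 later fish did not share the plateau. The mean log2 level of the 56 members in the 7-week fish was 4.43, 3.70, 4.51, 4.54 and 4.63 for fish 1 to 5. It was 4.33, 2.78, 4.59, 4.94 and 4.51 in the 10-week fish and 4.14, 4.51, 4.72, 4.63 and 3.25 in the 14-week fish. In each later age a single fish was low: fish 2 at 7 weeks, fish 2 at 10 weeks and fish 5 at 14 weeks. The 5-week fish had 2.74, 2.74, 3.30, 2.23 and 3.97. The 10-week fish 2 thus lay between 5-week fish 2 and 3, while 5-week fish 5 lay above all 3 of the low later fish. For the mean of the members, the data therefore go against the plain reading that the level is low only at 5 weeks. The group median is low there, and a single fish of each later age is low for its age too. Not every member followed the mean. In 10-week fish 2, 33 of 56 members stood at or below their own 5-week median, against 19 in 14-week fish 5 and 4 in 7-week fish 2.

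**Figure D1:**
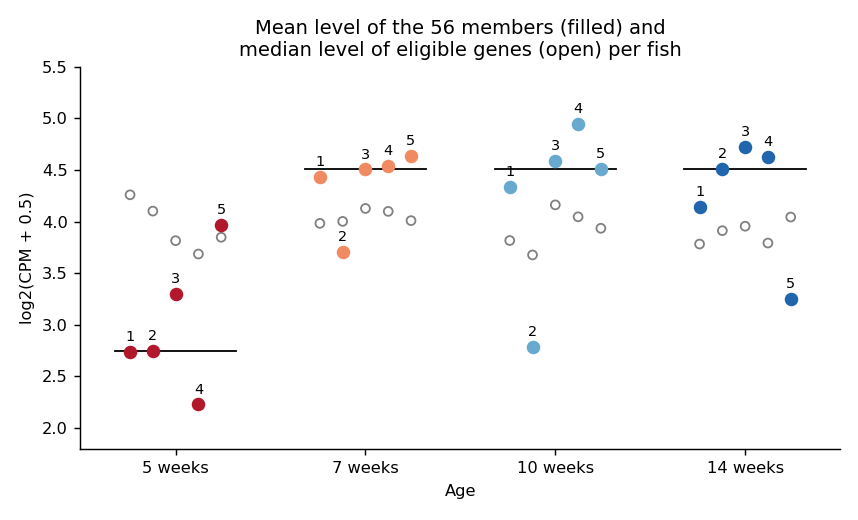
Each filled point is 1 fish, numbered within its age, and gives the mean log2(CPM + 0.5) over the 56 members; lines are the medians of 5 fish, and open points are the median level of the 10284 eligible genes in the same fish. The 5-week median lies lowest, 10-week fish 2 (2.78) lies among the 5-week fish, and 5-week fish 5 (3.97) lies above 7-week fish 2 (3.70).

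Over all eligible genes, the median level ran from 3.69 to 4.26 log2 units at 5 weeks and from 3.68 to 4.16 later. The lowest of these values was that of 10-week fish 2 (3.68), whereas 14-week fish 5 (4.04) was the highest of its age and 7-week fish 2 was at 4.00. Scaling by TMM, which corrects library sizes for composition, changed the sizes of single libraries by -0.24 to 0.30 log2 units. A larger size lowers the levels of its library. With this scaling the member mean was still lowest within its age in the same later fish, at 3.74 in 7-week fish 2, 2.97 in 10-week fish 2 and 3.26 in 14-week fish 5. In depth the 3 libraries lay at opposite ends: 7-week fish 2 (37122038 reads) and 14-week fish 5 (34710218 reads) were the deepest of their ages and 10-week fish 2 (24330529 reads) the shallowest. They had 19505, 19682 and 19257 genes with a read, within the 19032 to 20524 of all libraries. The part of depth and composition in the members' levels was not tested.

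The members differed widely in abundance. Their highest age-median ran from 5.08 to 1171 CPM with a median of 16.3, against a median of 20.3 over eligible genes. For the median member, the age-median was, in order of age, 4.48, 15.5, 14.3 and 16.3 CPM. Scores ran from 1.003 to 2.61 log2 units with a median of 1.27. These values were used in the choice and are a description only. The lowest library count of any member was 4 reads, and the median of the members' lowest counts was 51.5 reads.

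The highest score belonged to Nfu_g_1_009044. It was at 5.81, 9.68, 11.7, 2.15 and 29.4 CPM in the 5-week fish and at 97.2, 40.6, 133.6, 180.9 and 88.2 CPM in the 7-week fish. At 10 weeks it was at 61.7, 5.96, 71.4, 71.0 and 48.9 CPM, and at 14 weeks at 30.6, 90.6, 125.2, 79.6 and 4.38 CPM. The age groups overlapped, because 10-week fish 2 and 14-week fish 5 lay within the range of the 5-week fish while 5-week fish 5 stood close to the lowest other later fish.

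The next score, 2.52, was that of Nfu_g_1_018119. Its 5-week fish split into 3 at 3.11, 3.59 and 2.44 CPM (fish 1, 2 and 4) and 2 at 14.6 and 16.3 CPM (fish 3 and 5). The 7-week fish held 13.4 to 49.2 CPM, the 10-week fish 5.30 to 48.6 CPM and the 14-week fish 17.4 to 25.32 CPM. The 14-week fish did not overlap with the 5-week fish, and fish 5 was the lowest of them.

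At the edge of the rule, Nfu_g_1_017131 had the lowest score of a member at 1.003, with medians of 4.80 CPM at 5 weeks and 10.1, 14.7 and 10.6 CPM at the later ages. Nfu_g_1_013302 followed at 1.01, with medians of 63.0, 138, 144.3 and 127.2 CPM in order of age. Just outside were Nfu_g_1_007885, at 40.1, 108.8, 89.3 and 80.7 CPM, and Nfu_g_1_020383, at 7.96, 16.8, 16.3 and 18.4 CPM, both with scores just under 1. The limit thus falls between genes with nearly the same score.

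No member separated all 5-week fish from all later fish (0 of 56). Over the eligible genes this separation in the low direction was found in 8 of 10284, or 0.0778%. All 5 of the 5-week fish lay below the lowest later median in 34 members, 4 fish did in 21 members and 3 fish in 1 member. The rule fixes the 5-week median below that value, so at least 3 fish had to lie below it in every member. These counts are therefore a description only. Set against every later fish, 37 members had 5-week fish 4 below all 15, against 18 for fish 1, 19 for fish 2, 12 for fish 3 and 4 for fish 5. The most frequent pattern was fish 4 alone, in 18 members, followed by no fish in 14 members and fish 1, 2 and 4 in 7 members. The lowest of all 20 libraries was 5-week fish 4 in 28 members and 10-week fish 2 in 11. It was 5-week fish 2 in 6 members, 5-week fish 1 and 3 in 4 each and 14-week fish 5 in 3. Of all 20 libraries, 5-week fish 4 and 10-week fish 2 also had the lowest median levels over eligible genes, 3.69 and 3.68. Eligible genes were not counted fish by fish, so whether these counts are particular to the members was not tested.

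Nfu_g_1_011315 came nearest to full separation. It was at 30.6, 18.1, 20.6, 23.0 and 37.1 CPM at 5 weeks, and its lowest later fish were 14-week fish 2 and 3, at 32.5 and 33.4 CPM. Its 10-week fish reached 54.1, 57.25, 104.9, 212.0 and 70.7 CPM, so that 5-week fish 5 alone overlapped with 2 of the 14-week fish. Nfu_g_1_020425 was next, with 4.04, 3.20, 8.55, 2.36 and 8.32 CPM at 5 weeks and a lowest later value of 6.41 CPM, in 10-week fish 2. It also had the smallest spread over the later fish, which ran from 6.41 to 14.3 CPM. Nfu_g_1_016771 was second in evenness and ran from 32.3 CPM in 10-week fish 2 to 88.1 CPM over the later fish, against 18.1 to 60.34 CPM at 5 weeks.

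**Figure D2:**
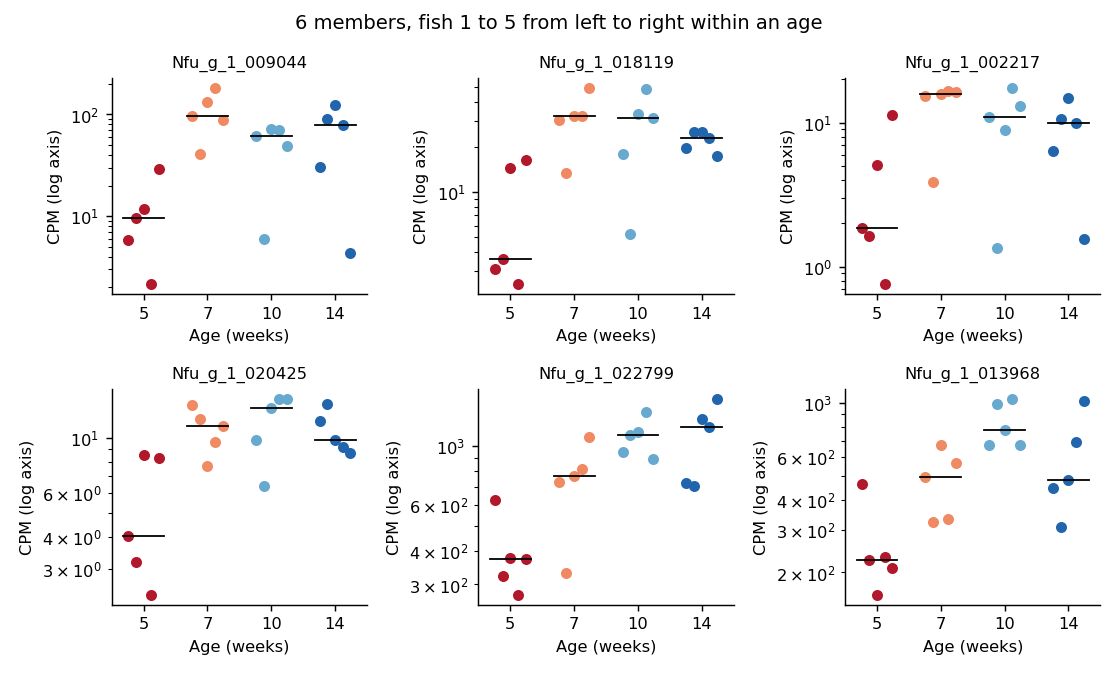
Each panel is 1 member, each point 1 fish in CPM on a log axis, with fish 1 to 5 from left to right within an age and lines at the medians of 5 fish. In the 3 upper panels and the lower left panel (Nfu_g_1_020425, 6.41 CPM) 10-week fish 2 drops to the range of the 5-week fish. In the lower middle and right panels (Nfu_g_1_022799 and Nfu_g_1_013968) it stays at 1093 and 994.1 CPM.

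The members moved together from fish to fish within the later ages, a property that the choice did not use. Log2 levels were centred on the mean of each age over the 15 later fish, and every pair of members was correlated. The median Pearson r over 1540 pairs of members was 0.70, with quartiles of 0.41 and 0.85. Over 52875186 pairs of eligible genes the median was 0.087, with quartiles of -0.20 and 0.36. An r above 0.5 was found in 69.2% of member pairs and 14.4% of eligible pairs. The pairs share libraries and their depth, genes are not independent replicates, and no p is given. The members also varied more between fish than eligible genes, as given below, and the eligible pairs were not matched for this. The choice required low medians in the same 5-week fish. The part of either in r was not tested. Without 10-week fish 2 the median was 0.54 for members and 0.065 for eligible genes, and leaving out any other single later fish gave 0.695 to 0.721 for members. With rank correlation the members' median was 0.53. The 53 genes high only at 5 weeks had a median r of 0.40 over the same fish.

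**Figure D3:**
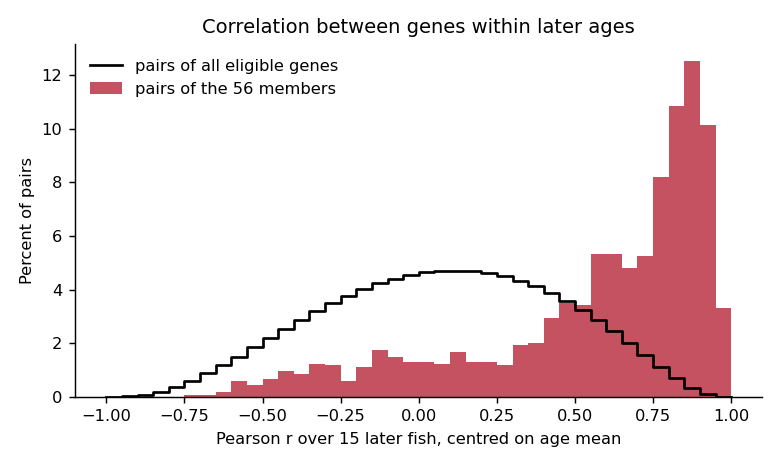
Bars give the percent of the 1540 member pairs, and the black line the percent of all pairs of eligible genes, by Pearson r over the 15 later fish after centring on each age. The member pairs pile up above 0.5 (69.2% of them), while the eligible pairs centre near 0.087.

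The low fish of each later age was the same fish for most members. Fish 2 was the lowest 7-week fish in 43 of 56 members, fish 2 the lowest 10-week fish in 49 and fish 5 the lowest 14-week fish in 42. For 35 members all 3 held. At or below the 5-week median of the gene stood 33 members in 10-week fish 2, 19 in 14-week fish 5 and 4 in 7-week fish 2. Of the other later fish, 7-week fish 1 had 1 such member and the rest had none (0 each). Over eligible genes the median level was lowest of all 20 libraries in 10-week fish 2 (3.68) and highest of its age in 14-week fish 5 (4.04). Eligible genes were not counted in these ways. The members varied together, so their counts are not separate observations.

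Ordered by their median r with the other members, 6 genes stood apart from the other 50. Their median r ran from -0.43 to 0.10, and the next member was at 0.43. This division was made after the values were seen. The 6 are Nfu_g_1_013302, Nfu_g_1_013968, Nfu_g_1_014255, Nfu_g_1_011315, Nfu_g_1_022799 and Nfu_g_1_002248. Their mean log2 level was 5.89, 5.22, 5.03, 5.11 and 5.13 in the 5-week fish. In 7-week fish 2 it was 6.17, the lowest of its age, against 6.28 to 6.51 in the other 7-week fish. In 10-week fish 2 it was 6.42, within the 6.25 to 7.17 of the others, and in 14-week fish 5 it was 7.09, above the 5.74 to 6.54 of the others. Single genes of the 6 were low in these fish: Nfu_g_1_022799 and Nfu_g_1_013968 were lowest of their age in 7-week fish 2, and Nfu_g_1_002248 in 10-week fish 2. For the other 50 the same fish had 3.41, 2.35 and 2.79, against 1.88 to 3.83 at 5 weeks and 3.90 to 4.68 in the remaining later fish.

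The most abundant members were among these 6. Nfu_g_1_022799 was at 624.1, 323.7, 377.9, 273.8 and 374.5 CPM at 5 weeks and at 730.3, 332.0, 765.9, 818.0 and 1074 CPM at 7 weeks. It reached 949.9, 1093, 1122, 1336 and 892.8 CPM at 10 weeks and 721.6, 702.1, 1256, 1171 and 1499 CPM at 14 weeks. Of the later fish, 7-week fish 2 alone lay within the range of the 5-week fish, and 14-week fish 5 was the highest of all 20. Nfu_g_1_013968 was at 464.2, 225.2, 161.5, 232.6 and 207.8 CPM at 5 weeks, where fish 1 stood above the others. The 7-week fish held 324.0 to 671.7 CPM, the 10-week fish 669.4 to 1040 CPM and the 14-week fish 309.3 to 1022 CPM.

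Nfu_g_1_013302 had the lowest median r, -0.43. It was at 55.9, 60.2, 89.8, 149.9 and 63.0 CPM at 5 weeks, with fish 4 highest, whereas fish 4 was the lowest 5-week fish for the members' mean. It reached 216.5 and 245.8 CPM in 7-week fish 1 and 2 and ran from 82.2 to 169.4 CPM over the other later fish. At the other end, Nfu_g_1_006966 and Nfu_g_1_002217 had the highest median r, each 0.87. Nfu_g_1_006966 was at 0.75, 1.47, 2.4025, 0.50 and 4.98 CPM at 5 weeks and at 3.96, 0.45 and 0.98 CPM in the low fish of 7, 10 and 14 weeks, with the remaining later fish at 4.34 to 9.04 CPM. Nfu_g_1_002217 was at 1.86, 1.63, 5.09, 0.76 and 11.2 CPM at 5 weeks, at 3.88, 1.36 and 1.56 CPM in those 3 fish, and at 6.39 to 17.29 CPM in the others.

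**Figure D4:**
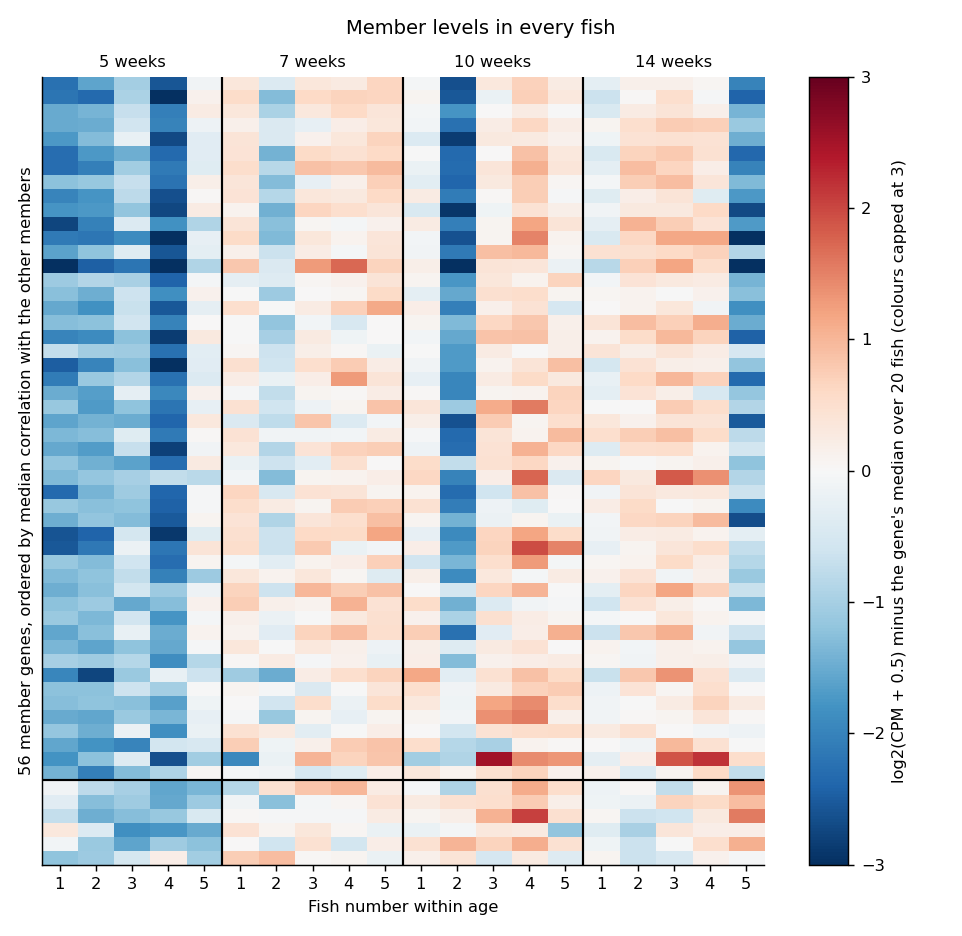
Each row is 1 of the 56 members, ordered by its median correlation with the other members, and each column 1 fish; colour gives log2(CPM + 0.5) minus the gene's median over 20 fish, capped at 3. Columns of low values are seen in 5-week fish 1 to 4, 10-week fish 2, 14-week fish 5 and, weaker, 7-week fish 2; of the 6 rows under the lower line, Nfu_g_1_002248 is low in 10-week fish 2 (-0.93) and Nfu_g_1_022799 in 7-week fish 2 (-1.25), and their mean is highest of its age in 14-week fish 5 (7.09).

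The spread between fish was wider for the median member than for the median eligible gene at every age. In order of age, the median SD of log2 levels was 0.844, 0.494, 0.982 and 0.724 for members. For eligible genes it was 0.457, 0.269, 0.346 and 0.372. The rule set no limit on the 5-week spread, but a score from medians of 5 fish can favour genes that vary between fish. At 5 weeks the members were also less abundant, with a median of 4.48 CPM against 14.3 CPM for eligible genes. The part of either in the spread was not tested, and the members were not tested against other genes. At 5 weeks the largest SD were those of Nfu_g_1_022606, at 0.80, 1.21, 6.21, 1.18 and 9.48 CPM in fish 1 to 5, and Nfu_g_1_009044, given above. In Nfu_g_1_022606 fish 3 and 5 reached the later range, whose lowest value was 1.85 CPM in 10-week fish 2 and highest 29.1 CPM in 10-week fish 4. The smallest SD at 5 weeks were those of Nfu_g_1_000663, with 6.97, 7.82, 8.83, 10.6 and 10.1 CPM, and Nfu_g_1_011315. The later fish of Nfu_g_1_000663 were far less even, from 4.15 CPM in 10-week fish 2 to 66.4 CPM in 14-week fish 3.

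Within the plateau, the rule capped any drift. The largest rises in median from 7 to 14 weeks were those of Nfu_g_1_024184, through 5.36, 6.32 and 9.61 CPM from age to age, and Nfu_g_1_021181, through 2.94, 4.64 and 5.30 CPM. The largest falls were those of Nfu_g_1_020000, through 76.3, 47.0 and 45.8 CPM, and Nfu_g_1_012274, through 7.00, 5.64 and 4.12 CPM. None of these 4 passed the test of 14 against 7 weeks described next, and each had fish of both ages in an overlapping range.

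Across all genes, ages were compared with edgeR's quasi-likelihood test on raw counts, and a gene was called at a Benjamini-Hochberg adjusted p under 0.05. All 56 members were tested, with the whole table of 16475 genes. The comparisons with 5 weeks use the contrast that chose the members, and the 3 comparisons share the 5-week fish, so their counts support nothing. At 7 weeks 23 members were higher than at 5 weeks (9.66% of all tested genes). The 10-week fish gave 13 such members (2.56%) and the 14-week fish 8 (1.31%). No member was lower (0 each). Their median log2 fold changes were 1.16, 1.24 and 1.24, against -0.085, -0.072 and -0.083 over all tested genes. For the mean of the later ages against 5 weeks, 21 members were called higher (1.92% of all tested genes), 17 of the 50 that varied together and 4 of the other 6. So 35 of 56 members, although chosen for a difference in medians, did not pass the threshold.

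Some single fish moved these counts by more than 1.5 times, and the calls over all tested genes moved too. Only such single-fish omissions are listed, and leaving out any other single fish moved a count by 1.5 times or less. For the mean of the later ages, where 316 of all tested genes were called higher, omission of 5-week fish 5 raised the count of called members to 45, of 10-week fish 2 to 37 and of 14-week fish 5 to 34. All genes called higher were then 485, 476 and 401. Omission of 5-week fish 1, 2 or 4 lowered the members to 11, 9 and 11 and all genes to 190, 142 and 134, and omission of fish 1 and 2 together gave 6 members and 171 genes. At 7 weeks (1591 genes called higher with all fish) the members were 38 lacking 5-week fish 5, 10 lacking 5-week fish 4, and 15 lacking 7-week fish 1 or fish 5. All genes were 1452, 947, 1365 and 1380 in this order. At 10 weeks (421 genes) the members were 33, 20 and 8 lacking 5-week fish 5, 3 and 2, with 576, 741 and 189 genes. They were 22, 8 and 6 lacking 10-week fish 2, 3 and 4, with 402, 269 and 122 genes. At 14 weeks (215 genes) they were 22, 16, 4, 4 and 2 lacking 5-week fish 5, 3, 1, 4 and 2, with 298, 410, 167, 146 and 115 genes. They were 17, 5, 2 and 2 lacking 14-week fish 5, 1, 3 and 4, with 344, 138, 79 and 57 genes, and 5 lacking 7-week fish 5, with 188 genes. For the mean of the later ages DESeq2 called 43 members, and 703 of 19726 genes, higher. With quality weights per age limma-voom called 5 members, and 43 of 16475 genes, higher. All 56 fold changes were above 0 in each fit for the mean of the later ages, a direction that the choice fixes.

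Between the later ages, where the rule limits the difference of medians, few members were called. From 7 to 10 weeks 2 members rose, Nfu_g_1_016685 and Nfu_g_1_013968 (27.7% of all tested genes were called in either direction). Nfu_g_1_016685 was named after its values were seen. The log2 fold changes were 0.96 (SE 0.33, edgeR adjusted p = 0.0356) and 0.84 (SE 0.311, edgeR adjusted p = 0.0498). Both calls were lost when 7-week fish 2, 7-week fish 4 or 10-week fish 4 was left out (0 members called). All genes called higher and lower were then 1468 and 2167 of 16751, 1388 and 2214 of 16775, and 1697 and 2366 of 16735. Omission of most other fish gave 1 called member. Without 14-week fish 5 there were 3, with 2186 higher and 2871 lower of 16744 genes. No member was called by edgeR between 10 and 14 weeks (0 members, background 0.0121%) or between 7 and 14 weeks (0 members, background 31%), and none of the 56 had an unadjusted p under 0.05 there (0 in each). DESeq2 also called 0 members in both comparisons, with 0 and 3 at an unadjusted p under 0.05. Over all genes it called 29 higher and 11 lower of 18859 between 10 and 14 weeks. Between 7 and 14 weeks it called 2790 higher and 2933 lower of 18427. The share of all tested genes at the unadjusted threshold was not counted. Without 14-week fish 5, edgeR called 2 members between 7 and 14 weeks, with 2441 higher and 3243 lower of 16744 genes.

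Many other genes followed the members from fish to fish in the later ages. Of the eligible genes that are not members, 252 had an r of at least 0.8 with the mean of the members over the 15 centred later fish, and 17 had an r of -0.8 or lower. The limit of 0.8 was set after the values were seen. In 89.3% of the 252 the 5-week median lay below the middle of the 3 later medians, against 49.8% of eligible genes, with a median difference of 0.53 log2 units against -0.0015. Both measures share the later fish. Of the 252, 68 failed the limit on the later range and the other 184 only the score. The closest were Nfu_g_1_014732 (r = 0.98), with medians of 6.88, 36.2, 26.9 and 19.3 CPM at 5, 7, 10 and 14 weeks, and Nfu_g_1_020372 (r = 0.97), at 42.3, 84.4, 76.4 and 60.6 CPM. The first missed the list by a later range of 0.89, the second by a score of 0.51.

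The genes high only at 5 weeks showed other fish-to-fish values. Their mean log2 level was 3.79, 3.54, 2.01, 4.28 and 4.01 in the 5-week fish. In 7-week fish 2, 10-week fish 2 and 14-week fish 5 it was 1.92, 2.002 and 1.96, within the 1.69 to 3.42 of the remaining later fish. Conversely, 5-week fish 5 was high for these genes and was the highest 5-week fish for the members. The difference between the lists was not tested.

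Levels also differed by gene length, which the rule did not use. Within each later age, long genes were lowest against short ones in the low fish, but the pattern was less regular at 5 weeks. Lengths were taken from the deposited counts and RPKM values (reads per kilobase and per 1000000 reads). The median length of the members was 3868 bp, with quartiles of 2377 and 6912 bp, against 3094 bp with quartiles of 1591 and 5253 bp over eligible genes. In each library, the median deviation of the longest 20% of eligible genes from their own medians was compared with that of the shortest 20%. This difference was 0.082, -0.162, -0.297, -0.385 and 0.090 log2 units in the 5-week fish. Fish 1, with a member mean of 2.74, thus had a higher value than fish 3, with a member mean of 3.30. It was -0.222 in 7-week fish 2, -0.354 in 10-week fish 2 and -0.115 in 14-week fish 5, the lowest value of its age in each case. The remaining later fish lay between -0.08885 and 0.340. Fish without a low member mean thus differed by length too, as in 10-week fish 3 (0.340) and 14-week fish 3 (0.298), where long genes were the higher ones.

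The longer members deviated further downwards than the shorter ones in each of the low later fish, where the longest eligible genes were also lower than the shortest. The 24 members shorter than the eligible median deviated by -1.32 log2 units on average in 10-week fish 2 and the 32 longer ones by -1.57. In 14-week fish 5 the values were -0.86 and -1.10, and in 7-week fish 2 -0.34 and -0.69. At 5 weeks they were -1.91 and -2.10 in fish 4 and -1.47 and -1.54 in fish 1, where the long-minus-short difference was 0.082. In 5-week fish 5 the shorter members were the lower ones, at -0.40 against -0.18. The part of the length-related difference in the members' levels was not tested.

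**Figure D5:**
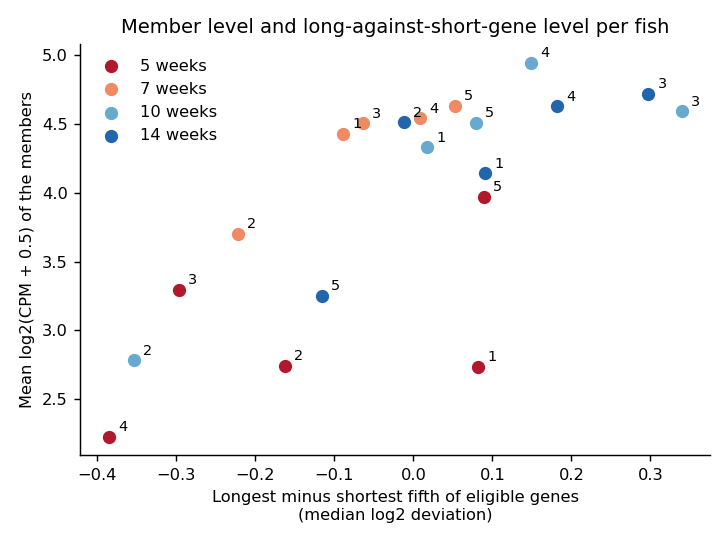
Each point is 1 fish, numbered within its age; the horizontal axis is the median log2 deviation of the longest 20% minus that of the shortest 20% of eligible genes, and the vertical axis the mean log2(CPM + 0.5) of the members. The lowest fish of each later age lies to the left of its age, at -0.222, -0.354 and -0.115, while 5-week fish 1 is low at 0.082.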

How the data were processed

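Liver RNA of 20 fish was sequenced after preparation with a TruSeq RNA v2 kit, per the labels' protocols. That kit keeps no strand information, so reads of genes that overlap on opposite strands cannot be separated. Reads shared by near-identical genes cannot be separated either, for a reason other than strand. The submitters' processing notes name featureCounts 1.4.6-p4, STAR 2.4.1d and CASAVA 1.8.2. The genome build was not given in the sources used here. Raw read counts per gene were deposited by the authors and were the values tested. In the RPKM values that the authors deposited, the library total ran through a cycle of 25 numbers from cell to cell, of which 20 match column totals. This cycle left a residual SD of 2.5e-05 log2 units over 2953 genes, while own totals left 0.320, and RPKM served only to derive gene lengths.

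Fish are numbered in accession order within an age. All 40 pairs within an age differed beyond sampling noise (smallest chi-square per degree of freedom 64.8). Counts were tested in R 4.3.3 with edgeR 4.0.16 (filterByExpr, TMM, a mean per age over all 20 libraries), with DESeq2 1.42.0 and limma 3.58.1 as alternatives. The fits were tested on simulated data. Members and lists were chosen with earlier results of these data known. Named members are, by rule, up to 2 in each direction for score, abundance, separation, spread, drift, closeness to the limit and correlation. Marker and pathway lists could not be applied without gene names.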

Additional observations from a re-analysis of the deposited data

Results flagged for a closer look

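Within an age, a fish was marked, on the log2 scale except for summed CPM, when its gap to the nearest fish exceeded 0.71 of the range of the 5 fish. Of 84 groups examined (the mean level and summed CPM of the members and 19 named genes at 4 ages), 16 were marked. Chance marks about 1 in 20 groups, but the groups share fish. Some genes were also named for their spread or correlation over the same fish, so 16 of 84 cannot be set against that rate. The mean log2 level of the members marked 7-week fish 2 (3.70) and 10-week fish 2 (2.78). In 10-week fish 2, low values were marked for Nfu_g_1_009044 (5.96 CPM), Nfu_g_1_021181 (0.247 CPM), Nfu_g_1_012274 (0.904 CPM), Nfu_g_1_006966 (0.452 CPM), Nfu_g_1_002217 (1.36 CPM) and the non-member Nfu_g_1_007885 (19.9 CPM). In 14-week fish 5 they were marked for Nfu_g_1_021181 (0.288 CPM), Nfu_g_1_024184 (1.70 CPM), Nfu_g_1_006966 (0.980 CPM) and Nfu_g_1_007885 (37.5 CPM). In 7-week fish 2 they were marked for Nfu_g_1_000663 (7.06 CPM), Nfu_g_1_012274 (2.77 CPM) and Nfu_g_1_002217 (3.88 CPM). The remaining mark was a high value, Nfu_g_1_011315 at 60.9 CPM in 7-week fish 5, whose other 7-week fish lay close together.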

How the results depend on the processing

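The list itself depended on the settings: 37 members were found with a pseudocount of 2 (34 shared with the 56) and 32 with a later range under 0.5. TMM-scaled sizes gave 76 members, 45 of them shared, means in place of medians 46 with 28 shared, and omission of 5-week fish 1 and 2 gave 69 with 28 shared. Leaving out single fish gave 44 to 82. The members' median SD at 5 weeks was 0.601 with a pseudocount of 2, and the value over eligible genes was not recomputed. Leaving out single fish gave 0 to 6 members with full separation. The 6 came without 5-week fish 5, where fewer fish had to lie below the later ones. Eligible genes were not recounted for these omissions, so the 6 cannot be set against their share with all fish. Members called were 10 to 38 at 7 against 5 weeks, 6 to 33 at 10 against 5, 2 to 22 at 14 against 5, 9 to 45 for the later ages against 5, 0 to 3 at 10 against 7 and 0 to 2 at 14 against 7 weeks. DESeq2 called 35, 25, 27 and 43 members in the 4 comparisons with 5 weeks in this order, with 2105 of 19291, 788 of 19726, 616 of 19291 and 703 of 19726 genes called higher, more than the 1591, 421, 215 and 316 of 16475 in edgeR. Omission of 5-week fish 1 and 2 left 8, 5, 3 and 6 members, with 2190, 133, 103 and 171 of 16810 genes. The 10 libraries of the ages compared gave 5 at 10 against 5 and 0 at 14 against 5 weeks (151 of 15613 and 3 of 15692 genes), and limma-voom with quality weights per age gave 0 at 14 against 5 weeks and 5 for the later ages (35 and 43 of 16475 genes). At an unadjusted p under 0.05 these 2 fits without calls had 39 and 33 members, in the direction that the choice fixes. The share of all tested genes at that threshold was not counted, so these counts support nothing. At 10 against 7 weeks, limma-voom called 1 member, with 1992 higher and 2701 lower of 16475 genes. No filter on low counts gave 0 members, with 1708 higher and 2424 lower of 22484 genes. The causes of these shifts were not tested. Of 494 refits of named genes for the mean of the later ages against 5 weeks, 432 kept direction and call status, 43 lost the call, 19 gained it and 0 reversed. Genes without a call at first count as kept where they stayed without one, as Nfu_g_1_022606 did in all 26 of its refits. Nfu_g_1_018119, called at first, lost the call in 12 of 26. The choice fixes the direction for the members, so the lack of reversals supports nothing. No paired analysis was possible because the fish numbers are only names. The lowest library of a member held 4 to 6509 reads, with a first quartile of 20.5, so counting error is largest there.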
